A study of Mus musculus with 42 samples.

Results

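Neuropeptides are made as long precursors, the prohormones, and become active only after they are cut and trimmed inside secretory granules. The proprotein convertases encoded by Pcsk1 and Pcsk2 cut prohormones after pairs of basic residues, the carboxypeptidase encoded by Cpe removes those basic residues, and the enzyme encoded by Pam converts a terminal glycine into an amide, a step that needs copper and ascorbate. Pcsk1n encodes proSAAS, which inhibits the Pcsk1 enzyme. Nhlh2 encodes a basic helix-loop-helix transcription factor of neurons that is known to activate Pcsk1. The hypothalamus uses this pathway to make peptides that raise or lower appetite.

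These 6 genes were chosen by name for their place in prohormone processing, out of 37907 genes in the table, and each matched a single gene identifier. Expression had been measured by RNA-seq in the arcuate nucleus (ARC), ventromedial hypothalamus (VMH), dorsomedial hypothalamus (DMH) and paraventricular nucleus (PVN) of wild-type C57/BL6 mice, all adult males. Food was given ad libitum (fed) or withheld for 24 h (fasted). Each nucleus was cut from brain cryosections by laser-capture microdissection, its RNA was copied by NuGEN Ovation amplification, and reads were counted without strand. Of 42 libraries, 22 came from fed mice (ARC 5, VMH 6, DMH 5, PVN 6) and 20 from fasted mice (ARC 5, VMH 6, DMH 4, PVN 5). The study asked, among other things, whether Pcsk1 and Nhlh2 differ by nutritional state in each nucleus. Values are RPKM (reads scaled by exon length and by library depth), a unit per length, so levels of different genes can be set side by side.

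Mean depth was estimated at 4.57 M reads, with a range of 1.33 to 13.2 M. All 11 nucleus markers examined, such as Agrp, Nr5a1, Npvf and Sim1, were highest in the nucleus they mark in fed mice. The summed level of 8 general neuron markers, Snap25 among them, differed between nuclei, with fed means of 834 RPKM for the ARC, 980 for the DMH, 1082 for the PVN and 1579 for the VMH. Snap25 was the largest part of the sum, at 314, 373, 434 and 813 RPKM in the same order. Stmn2, Tubb3 and Elavl4 were highest in the PVN and the other markers in the VMH. Elavl4 was higher in the ARC (24.5 RPKM) than in the VMH (18.2 RPKM). A difference between nuclei in bulk tissue can come from fewer cells that express a gene or from less RNA per cell, and these cannot be told apart. The study's methods took every nucleus from each brain, but the labels do not tie libraries to mice, so the libraries were treated as independent and p-values measure only the spread between these libraries, part of which may be technical. The libraries fell into 3 batches, read from the values, of which the first held 0 fasted DMH libraries.

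Across all 42 libraries, Cpe was the most abundant of the 6 genes at a mean of 612 RPKM, followed by Pcsk1n at 148, Pam at 35.3, Pcsk2 at 33.4, Pcsk1 at 19.5 and Nhlh2 at 3.76 RPKM. The 2 genes that varied most across libraries were Nhlh2 (21.4-fold from lowest to highest library) and Pcsk1 (11.6-fold). Pam (1.94-fold) and Cpe (1.96-fold) varied least, and Pcsk2 spanned 3.32-fold and Pcsk1n 2.25-fold. Within groups, the median coefficient of variation was 22.5% for Pcsk1 and 36.8% for Nhlh2, against 15.6% for the median of 14467 genes with a mean of at least 5 RPKM. It was lower for Cpe (8.98%), Pam (9.93%), Pcsk1n (10.6%) and Pcsk2 (11.2%).

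**Figure D1:**
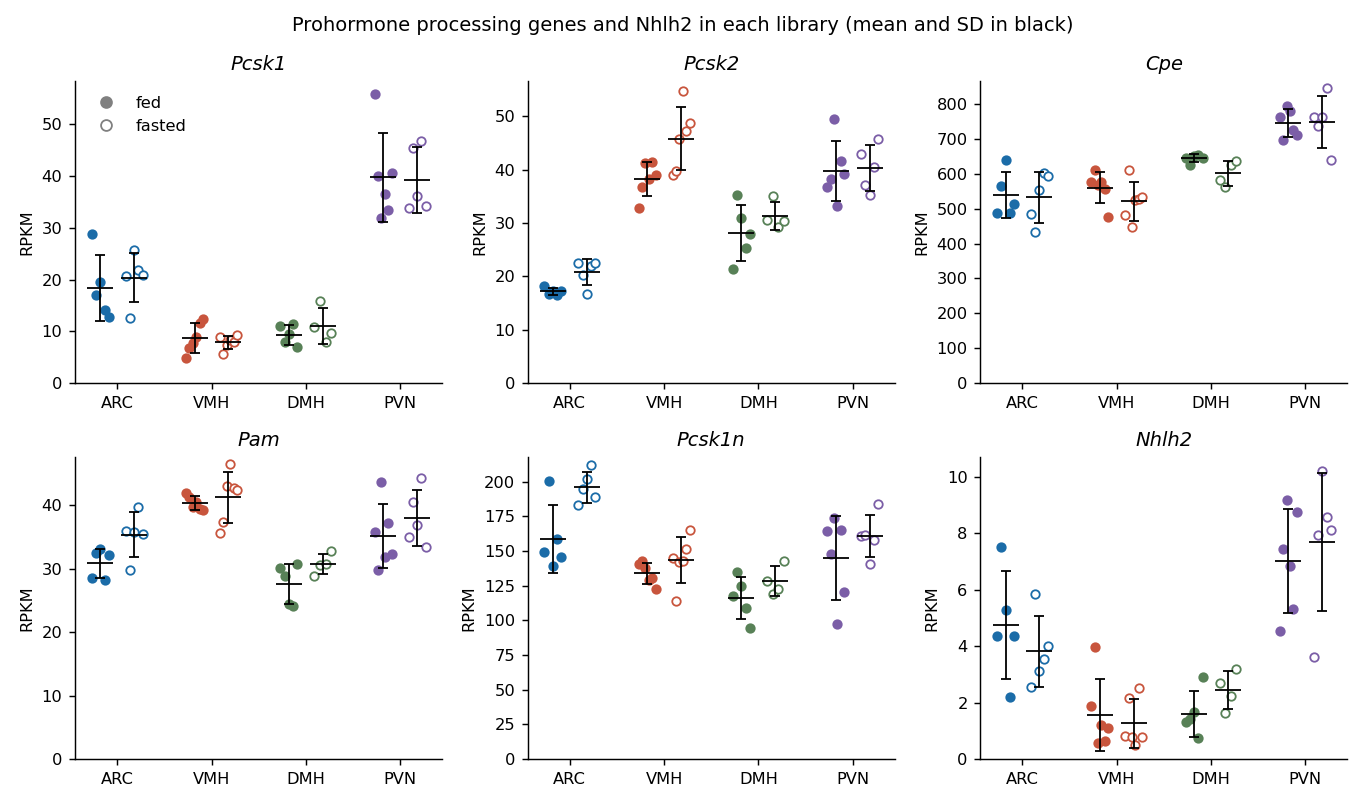
RPKM (linear axes from 0) of the 6 genes in each library of the 4 nuclei, with filled points for fed and open points for fasted mice; black lines mark the mean and SD of each group. Pcsk1 lies between 31.9 and 55.8 RPKM in the PVN and at or below 28.8 RPKM in all libraries of the other nuclei, while fed and fasted points overlap in every nucleus.

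The levels of these genes differed by nucleus, and none of them passed the threshold for fasting. All 6 genes differed between the nuclei of fed mice (limma F test across nuclei, adjusted p under 0.1, from 6.38e-11 for Pcsk2 to 0.0518 for Pcsk1n), where 12.4% of the 33579 genes tested did. The count was 5 of 6, with Pcsk1n no longer called, without ARC-Fed library 2 (adjusted p = 0.136), DMH-Fed library 4 (adjusted p = 0.118) or DMH-Fed library 5 (adjusted p = 0.177). All 6 also differed between the nuclei of fasted mice (adjusted p from 9.29e-10 for Pcsk2 to 0.00823 for Pam), against 11.9% of all genes. Of 36 pairwise comparisons of fed nuclei, 20 passed. Of all genes, 7.9% passed between fed ARC and VMH, 2.79% between ARC and DMH, 4.13% between ARC and PVN, 5.24% between VMH and DMH, 9.84% between VMH and PVN and 3.42% between DMH and PVN. In fasted mice 18 of 36 passed, and the shares of all genes were 8.91%, 3.21%, 4.19%, 3.94%, 9.24% and 3% in the same order of pairs. Each of these differences had the same sign within every batch that held both nuclei.

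Pcsk1, the convertase that makes the first cuts in precursors such as proopiomelanocortin and pro-thyrotropin-releasing hormone, was highest in the PVN. Pcsk1 (ENSMUSG00000021587) lies on the plus strand of GRCm38 at chr13:75089826-75134861, with 14 exon blocks. In the fed PVN its 6 libraries ran from 31.9 to 55.8 RPKM with a median of 38.3, and the 5 fasted PVN libraries read 33.8, 45.3, 36.0, 46.8 and 34.3 RPKM. The ARC came next, with 28.8, 17.1, 19.6, 14.1 and 12.8 RPKM in fed and 20.7, 12.6, 25.7, 21.8 and 20.9 RPKM in fasted libraries. No PVN library overlapped an ARC library.

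The DMH and VMH held the least Pcsk1. Fed DMH libraries read 11.1, 7.86, 9.44, 11.5 and 6.96 RPKM, and fasted DMH libraries 10.8, 15.9, 7.92 and 9.63 RPKM. In the VMH the fed libraries ran from 4.79 to 12.4 RPKM with a median of 8.38, and the fasted ones from 5.70 to 9.23 with a median of 8.08. The DMH and VMH overlapped, and their difference did not pass in fed mice (VMH minus DMH -0.13, 95% interval -0.54 to 0.29 on the log2(RPKM + 1) scale) or in fasted mice (-0.41, -0.85 to 0.03).

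The mean of Pcsk1 was thus 39.7 ± 8.57 RPKM (SD, n = 6) in the fed PVN and 8.71 ± 2.91 RPKM (n = 6) in the fed VMH, 4.56-fold apart, and the fasted means were 4.97-fold apart. On the log2(RPKM + 1) scale, the fed VMH was below the PVN by -2.10 (SE 0.19, adjusted p = 3.76e-10), the DMH by -1.97 (SE 0.20, adjusted p = 1.98e-08) and the ARC by -1.10 (SE 0.20, adjusted p = 0.000484). The ARC was above the VMH by 1.003 (SE 0.20, adjusted p = 0.000861) and above the DMH by 0.87 (SE 0.21, adjusted p = 0.0173). The order PVN, ARC, DMH, VMH was the same in fasted mice, where the same 5 of 6 pairs passed. The fasted difference of ARC and DMH, 0.83 (SE 0.23, adjusted p = 0.0410), was no longer called without ARC-Fast library 3 (0.74, adjusted p = 0.125), DMH-Fast library 3 (0.70, adjusted p = 0.145) or DMH-Fast library 4 (0.78, adjusted p = 0.113).

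Every one of the 11 PVN libraries was above every library of the other nuclei for Pcsk1, a separation that 0.191% of all genes tested showed. The size of some differences moved between batches. Fed ARC minus VMH was 2.16 in batch 1, 1.04 in batch 2 and 0.15 in batch 3, where the 2 VMH libraries reached 11.6 and 12.4 RPKM and the 2 ARC libraries 14.1 and 12.8. Fed VMH minus PVN was -2.85, -1.91 and -1.54 in the 3 batches. Among ARC libraries, the highest Pcsk1 value, 28.8 RPKM, came from ARC-Fed library 1, which also had the highest summed level of the PVN markers Sim1, Oxt, Avp and Crh, 168 RPKM against 17.3 to 90.4 in the other ARC libraries and a mean of 6218 in the fed PVN. The part of PVN tissue in that value was not tested.

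By group means, Nhlh2 had the same order of nuclei as Pcsk1, at lower levels, though not every step of that order passed the threshold. Nhlh2 (ENSMUSG00000048540) lies on the plus strand at chr3:102010076-102015492 as 1 exon block. Fed PVN libraries ran from 4.53 to 9.18 RPKM with a median of 7.16, and fasted PVN libraries read 3.61, 7.95, 10.2, 8.57 and 8.13 RPKM. The ARC libraries read 4.36, 7.51, 5.29, 2.19 and 4.36 RPKM in fed and 2.55, 5.86, 3.11, 3.54 and 4.01 RPKM in fasted mice, and overlapped the PVN in both states.

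In the DMH, Nhlh2 read 1.30, 1.41, 1.67, 0.729 and 2.92 RPKM in fed and 2.69, 1.63, 2.23 and 3.20 RPKM in fasted libraries. The VMH held the least, from 0.549 to 3.97 RPKM (median 1.14) in fed and from 0.479 to 2.53 RPKM (median 0.80) in fasted mice. In VMH libraries these values stood for an estimated 4.36 to 62.9 reads, so counting error was large there, and a gene of its length with no reads would be listed at 0.202 RPKM.

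The fed PVN mean of Nhlh2 was 7.02 ± 1.84 RPKM (n = 6), 4.51-fold that of the VMH, and the fasted means differed 6.12-fold. Fed Nhlh2 was lower in the VMH than in the PVN by -1.74 on the log2(RPKM + 1) scale (SE 0.27, adjusted p = 1.19e-05) and lower in the DMH by -1.64 (SE 0.28, adjusted p = 0.000203). The VMH difference was -0.85, -2.28 and -2.08 within the 3 batches. Fed ARC levels were above the VMH by 1.22 (SE 0.28, adjusted p = 0.00334) and above the DMH by 1.12 (SE 0.29, adjusted p = 0.0298), the latter not called without ARC-Fed library 2 (0.96, adjusted p = 0.118) or DMH-Fed library 4 (0.99, adjusted p = 0.110). ARC and PVN did not differ past the threshold in fed (-0.52, 95% interval -1.08 to 0.05, adjusted p = 0.527) or fasted mice (-0.83, -1.42 to -0.24, adjusted p = 0.147). Fasted ARC and DMH also missed it (0.47, -0.16 to 1.10). VMH minus DMH missed it in fed (-0.10, -0.67 to 0.47) and in fasted mice (-0.67, -1.27 to -0.06, adjusted p = 0.321). Thus 3 of 6 pairs passed in fasted and 4 of 6 in fed mice.

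Pcsk1 and Nhlh2 shared their order of nuclei by group means, and no relation between them was detected among libraries of a nucleus. Over the 8 group means of log2(RPKM + 1), Pearson's r was 0.98 and Spearman's rho 0.95, given as a description because each nucleus counts 2 times. Within a nucleus, over its fed and fasted libraries together, r was -0.18 for the ARC (n = 10), -0.52 for the VMH (n = 12), -0.38 for the DMH (n = 9) and -0.10 for the PVN (n = 11). Spearman's rho was -0.27, -0.39, -0.47 and -0.06. None of these 4 relations passed (2-sided permutation p for r of 0.607, 0.0873, 0.311 and 0.761, exact in the DMH, and Benjamini-Hochberg adjusted values of 0.761, 0.349, 0.622 and 0.761). The permutation p for rho was 0.448, 0.210, 0.213 and 0.860, adjusted to 0.597, 0.425, 0.425 and 0.860. Without the 2 libraries farthest from the median of Nhlh2, r was -0.50, -0.60, -0.37 and 0.16. After fed and fasted means were removed, r in the DMH was -0.70, and again no nucleus passed.

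**Figure D2:**
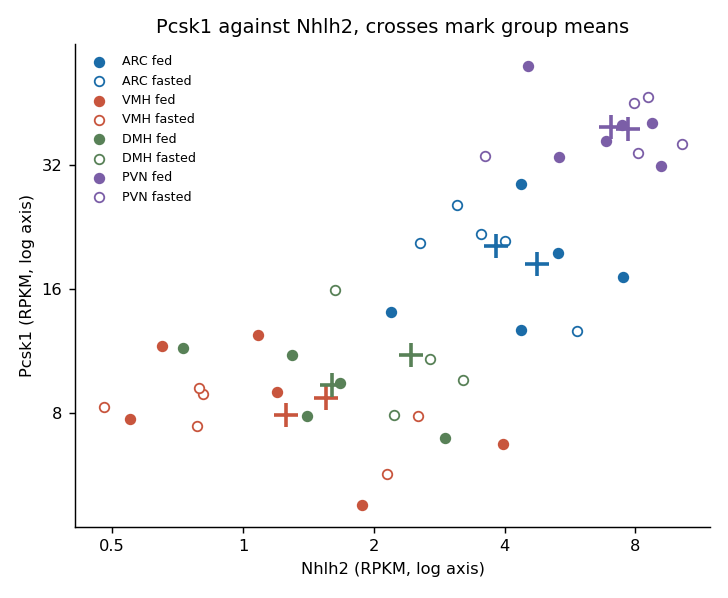
Pcsk1 against Nhlh2 in each of the 42 libraries, in RPKM on log axes, coloured by nucleus, filled for fed and open for fasted mice, with a cross at each group mean. By group means the PVN and ARC lie at higher values of both genes than the DMH and VMH, though ARC libraries overlap DMH and VMH libraries for Nhlh2. Points of one nucleus form no rising line (r from -0.52 to -0.10).

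Because these 2 genes shared an order across nuclei and Nhlh2 binds E-box motifs, the promoter stretches directly upstream of both are shown, from RefSeq on GRCm38.p6, plus strand, up to 250 bases before the start and leaving out annotated exons. Capitals mark matches to the E-box CANNTG or to the cyclic AMP response element TGACGTCA, both searched on both strands.
Pcsk1, chr13:75089607-75089825: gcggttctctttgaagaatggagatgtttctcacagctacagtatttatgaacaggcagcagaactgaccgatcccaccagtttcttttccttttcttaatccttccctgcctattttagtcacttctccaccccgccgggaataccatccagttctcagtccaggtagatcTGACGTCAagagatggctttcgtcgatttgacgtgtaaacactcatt
Nhlh2, chr3:102009895-102010075: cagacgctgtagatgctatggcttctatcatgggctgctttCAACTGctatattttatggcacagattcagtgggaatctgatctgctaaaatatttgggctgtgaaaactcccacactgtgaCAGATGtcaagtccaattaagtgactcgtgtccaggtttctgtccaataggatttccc
The Pcsk1 stretch of 219 bases held 1 match to TGACGTCA, a motif that 1.13% of all promoter stretches of that length held, and 0 matches to CANNTG, which 62.0% held. The Nhlh2 stretch of 181 bases held 2 matches to CANNTG, which 55.7% of stretches of that length held, and 0 to TGACGTCA (0.594%). Neither stretch held CAGCTG (11.4% and 9.27%) or the STAT-type motif TTCNNNGAA (6.24% and 5.28%). These are matches of letters in a short window and say nothing of binding.

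Pcsk2, the second convertase, which cuts the products of Pcsk1 into smaller peptides, had a different map. Pcsk2 (ENSMUSG00000027419) lies on the plus strand at chr2:143546156-143816285 with 12 exon blocks, 4.54% of whose length overlaps the antisense genes Pcsk2os1 and Pcsk2os2. Its ARC libraries were the lowest, at 18.2, 16.8, 17.3, 16.5 and 17.2 RPKM in fed and 22.6, 20.3, 16.7, 21.96 and 22.5 RPKM in fasted mice. In the VMH it ran from 32.8 to 41.5 RPKM (median 38.6) in fed and from 39.0 to 54.7 RPKM (median 46.5) in fasted mice. The PVN was close to the VMH, at 33.2 to 49.6 RPKM (median 38.7) in fed and 42.9, 37.1, 35.2, 40.5 and 45.8 RPKM in fasted libraries.

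The DMH sat between, at 21.4, 35.2, 30.9, 25.3 and 28.02 RPKM in fed and 30.6, 35.1, 29.2 and 30.4 RPKM in fasted libraries. Every ARC library was below every library of the other nuclei for Pcsk2, both in fed mice (0.203% of all genes did so) and in fasted mice (0.325%). The fed ARC was below the VMH by -1.11 (SE 0.10, adjusted p = 3.31e-10), below the PVN by -1.15 (SE 0.10, adjusted p = 1.96e-10) and below the DMH by -0.66 (SE 0.11, adjusted p = 0.000115) on the log2 scale. In fasted mice 4 of 6 pairs passed, the DMH and PVN pair (fed -0.49, SE 0.10, adjusted p = 0.00242) missing the threshold there (-0.35, adjusted p = 0.108). VMH and PVN did not differ past the threshold (fed VMH minus PVN -0.05, 95% interval -0.24 to 0.15, fasted 0.18, -0.03 to 0.38). The ARC difference from the VMH was -0.90, -1.18 and -1.21 within the 3 batches. The ARC also had the lowest and the VMH the highest sum of neuron markers, 1.89-fold apart in fed mice, though single markers differed in their order. The part of neuron content in the Pcsk2 differences was not tested.

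The balance of Pcsk1 to Pcsk2 therefore split the nuclei into 2 pairs. Within single libraries, the ratio of Pcsk1 to Pcsk2 RPKM had a geometric mean of 1.03 in the fed ARC (0.742 to 1.59) and 0.990 in the fed PVN (0.644 to 1.52), but 0.217 in the fed VMH (0.146 to 0.318) and 0.331 in the fed DMH (0.223 to 0.517). No library of the ARC or PVN overlapped one of the VMH or DMH. The ARC ratio was 4.74-fold that of the VMH and 3.11-fold that of the DMH, and the PVN ratio exceeded both (2-sided exact permutation test on log2 ratios, p from 0.00216 to 0.00794, Benjamini-Hochberg adjusted over 12 tests 0.00519 to 0.0136, n = 5 or 6). ARC and PVN differed by 0.06 on the log2 scale (exact p = 0.829).

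The VMH ratio was 0.656-fold that of the DMH, which passed only narrowly (exact p = 0.0671, adjusted 0.0895). That call was lost without any single one of VMH-Fed libraries 1 to 4 or DMH-Fed libraries 1, 3 and 4, with log2 differences of -0.45 to -0.64 and adjusted exact p-values of 0.116 to 0.171. The gap of ARC and VMH was 3.28, 2.35 and 1.41 on the log2 scale within the 3 batches. VMH minus DMH was -1.66, -0.31 and -0.17 there.

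Set against its inhibitor, Pcsk1 stood out in the PVN. The ratio of Pcsk1 to Pcsk1n had a geometric mean of 0.275 in the fed PVN (0.184 to 0.376), 0.113 in the ARC (0.0853 to 0.193), 0.0797 in the DMH (0.0582 to 0.105) and 0.0621 in the VMH (0.0341 to 0.101). The PVN was above each of the others (exact permutation p of 0.00433 against the ARC and 0.00216 against the VMH and the DMH, adjusted 0.00866, 0.00519 and 0.00519). ARC exceeded VMH 1.81-fold (exact p = 0.0390, adjusted 0.0584), but by 2.27, 0.80 and -0.11 on the log2 scale within the 3 batches, so it did not hold within batch 3. That call was also lost without ARC-Fed library 1 or 3 or any one of VMH-Fed libraries 1 to 4 (log2 differences of 0.66 to 0.89, adjusted exact p of 0.108 to 0.127). The ARC against the DMH (adjusted 0.162) and the VMH against the DMH (adjusted 0.279) did not pass.

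**Figure D3:**
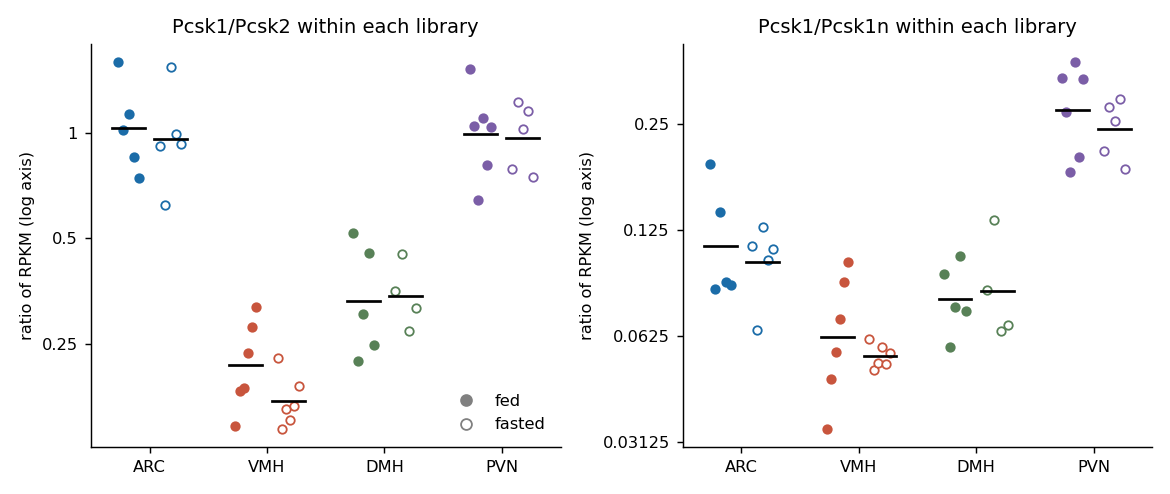
Ratio of Pcsk1 to Pcsk2 (left) and of Pcsk1 to Pcsk1n (right) in each library, from RPKM, on a log axis; filled points are fed, open points fasted, and black lines are geometric means. For Pcsk1 to Pcsk2 the ARC and PVN lie near 1 and the VMH and DMH at 0.517 or below, and for Pcsk1 to Pcsk1n the PVN lies highest with fed means from 0.0621 (VMH) to 0.275 (PVN).

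Cpe, the carboxypeptidase that trims what either convertase leaves, was abundant in every nucleus and highest in the PVN. Cpe (ENSMUSG00000037852) lies on the minus strand at chr8:64592542-64693054 with 12 exon blocks. Fed libraries ran from 695 to 795 RPKM in the PVN, from 624.96 to 654 in the DMH, from 475 to 611 in the VMH and from 488 to 641 in the ARC. Each PVN library was above each library of the other nuclei in fed mice and again in fasted mice, as it was for Pcsk1 (0.405% and 0.488% of all genes). In size the difference was small, 1.38-fold between the fed PVN and ARC means. Fed ARC was below the PVN by -0.47 (SE 0.08, adjusted p = 0.000146) and fed VMH by -0.41 (SE 0.08, adjusted p = 0.000240), with -0.58, -0.39 and -0.52 for the ARC within the 3 batches. Both passed in fasted mice too, and another pair, fasted DMH against PVN (-0.31, SE 0.09, adjusted p = 0.0560), was not called without DMH-Fast library 1 or 2 or PVN-Fast library 1, 3 or 4 (adjusted p of 0.112 to 0.183) or after quantile normalization (-0.14).

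Pam, the amidating enzyme, was highest in the VMH and lowest in the DMH in both states. Pam (ENSMUSG00000026335) lies on the minus strand at chr1:97795114-98095646 with 32 exon blocks, 1.58% of whose length overlaps B230216N24Rik. Fed VMH libraries sat closely together, from 39.3 to 41.9 RPKM, against 28.2 to 33.0 in the ARC, 24.1 to 30.8 in the DMH and 29.7 to 43.7 in the PVN. Fed VMH exceeded DMH by 0.54 (SE 0.08, adjusted p = 2.63e-05) and ARC by 0.38 on the log2 scale (ARC minus VMH -0.38, SE 0.08, adjusted p = 0.00203), and fed DMH was below PVN by -0.33 (SE 0.08, adjusted p = 0.0174). In fasted mice the VMH and DMH differed (0.41, SE 0.09, adjusted p = 0.00366) and the other 5 pairs did not pass. The sum of neuron markers, though not each single marker, was highest in the VMH, and the part of neuron content in the Pam differences was not tested.

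Pcsk1n, the convertase inhibitor, was highest in the ARC and lowest in the DMH. Pcsk1n (ENSMUSG00000039278) lies on the plus strand at chrX:7919822-7924410 with 3 exon blocks, 6.16% of whose length overlaps Eras. Its level was the most even of the 6 across fed nuclei, with means from 116 ± 15.4 RPKM in the DMH (n = 5) to 158.5 ± 24.4 in the ARC (SD, n = 5), 1.36-fold apart. Only the ARC and DMH pair passed in fed mice (0.44, SE 0.12, adjusted p = 0.0340), and it was lost without ARC-Fed library 2 (0.36, adjusted p = 0.151) or DMH-Fed library 5 (0.37, adjusted p = 0.133). In fasted mice the ARC exceeded the DMH by 0.61 (SE 0.12, adjusted p = 0.00292) and the VMH by 0.46 (SE 0.11, adjusted p = 0.00642).

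None of the 6 genes passed the threshold for fasting in any nucleus (0 of 24 comparisons, limma adjusted p from 0.484 to 1). Few genes did, and the shares of all genes called were 0.0566% for the ARC, 0.131% for the VMH, 0.0238% for the DMH and 0.0715% for the PVN, so a count of 0 of 6 is not a result about these genes. Fed and fasted libraries overlapped in all 24, while 0.742% of all genes for the ARC, 0.277% for the VMH, 1.15% for the DMH and 0.402% for the PVN showed no overlap. The change did not differ between nuclei for any of the 6 either (interaction F test, adjusted p = 1 for each, unadjusted from 0.348 to 0.748), where 0.00596% of genes passed.

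The intervals show how large a change could have gone unseen. For Pcsk1, the fasted minus fed difference on the log2(RPKM + 1) scale was 0.16 for the ARC (95% interval -0.28 to 0.59), -0.08 for the VMH (-0.48 to 0.31), 0.20 for the DMH (-0.26 to 0.66) and -0.01 for the PVN (-0.42 to 0.41). Nhlh2 was less well bounded, at -0.22 for the ARC (-0.81 to 0.37), -0.14 for the VMH (-0.68 to 0.40), 0.43 for the DMH (-0.20 to 1.06) and 0.09 for the PVN (-0.48 to 0.66). At the low level of Nhlh2 this scale understates fold changes, so larger ones could have gone unseen. Its DMH difference ranged from 0.18 to 0.66 under alternative settings. Cpe had the narrowest bounds, with all 4 differences between -0.11 and 0.00 and intervals within -0.28 and 0.17.

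**Figure D4:**
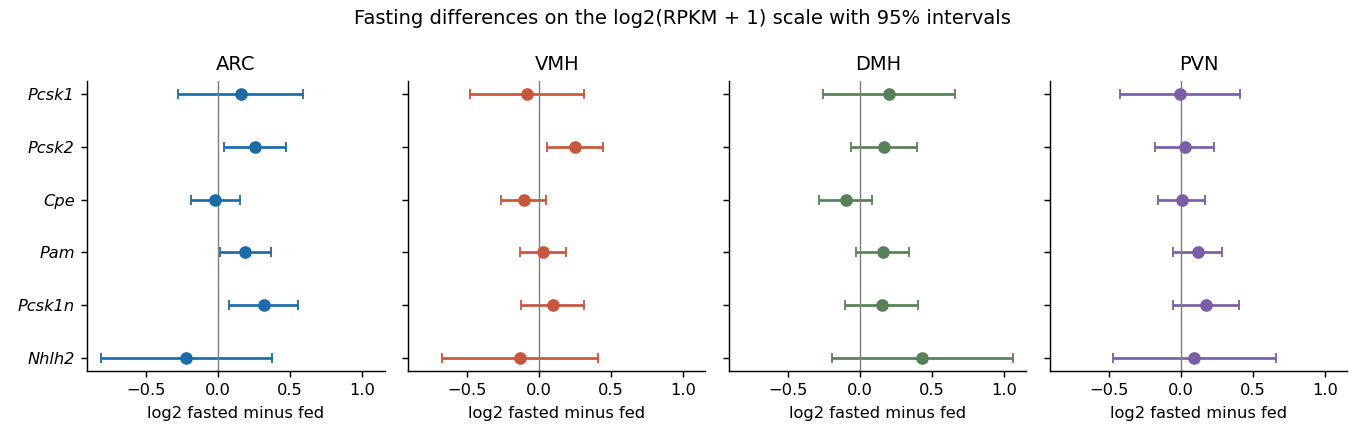
Fasted minus fed difference of each gene in the 4 nuclei on the log2(RPKM + 1) scale, with points for the limma estimate and bars for its 95% interval. All estimates lie between -0.22 and 0.43, with the widest bars for Nhlh2, and 4 of the 24 bars (Pcsk2, Pam and Pcsk1n in the ARC, and Pcsk2 in the VMH) exclude 0 before adjustment for multiple tests.

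Before adjustment, 4 of the 24 comparisons had a p under 0.05, 3 in the ARC (7.5% of all genes there) and 1 in the VMH (7.31%), with none in the DMH (6.48%) or PVN (5.53%). Pcsk1n in the ARC read 149, 200.3, 139, 158 and 146 RPKM in fed and 183, 194, 202, 212 and 189 RPKM in fasted libraries, so 5 of 5 fasted libraries lay above the fed mean while 1 fed library reached into the fasted range. The difference was 0.32 (SE 0.12, unadjusted p = 0.0107, adjusted p = 0.603, exact permutation p = 0.0317). It was 0.30, 0.25 and 0.40 within the 3 batches. For Pcsk2 in the ARC it was 0.26 (SE 0.11, adjusted p = 0.647, exact p = 0.0397), with 4 of 5 fasted libraries above the fed mean, and for Pam in the ARC 0.19 (SE 0.09, adjusted p = 0.647, exact p = 0.0635), also with 4 of 5. Over the same ARC libraries the summed neuron markers had means of 834 RPKM in fed and 770 in fasted mice. The part of neuron content in these ARC differences was not tested.

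Pcsk2 in the VMH was 38.3 ± 3.22 RPKM in fed and 45.8 ± 5.89 in fasted mice (SD, n = 6 each), with 6 of 6 fasted libraries above the fed mean (0.25, SE 0.10, adjusted p = 0.484, exact p = 0.0216). Within the 3 batches the difference was 0.17, 0.32 and 0.25. Cpe in the DMH read 646, 624.96, 651, 654 and 645 RPKM in fed and 582, 561, 624 and 637 RPKM in fasted libraries, with 4 of 4 fasted libraries below the fed mean (exact permutation p = 0.0159), whereas limma, which pools the spread over all groups, gave -0.10 (SE 0.09, adjusted p = 1). Estimated depth in the DMH was 3.91 ± 0.862 M reads in fed and 7.38 ± 4.004 M in fasted mice (exact permutation p = 0.0238). With estimated depth as a covariate in limma, none of these genes was called for fasting in the DMH. Of all genes tested only 6 were called in that fit, so this count cannot show the part of depth. The part of depth in the DMH values was not tested. Ratios of Pcsk1 to Pcsk2 and to Pcsk1n did not differ by fasting in any nucleus (0 of 8, exact permutation p from 0.117 to 0.903, adjusted 0.903 each).

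The other genes of the pathway were counted from lists of known members, to be read against 12.4% of all genes called between fed nuclei and at most 0.131% called for fasting in a nucleus. At the latter share, a count of 0 for fasting in a short list is not a result about its genes. Of 7 other proprotein convertases, 2 differed between fed nuclei, Pcsk5 and Pcsk6 (named after their values were seen), and 0 were called for fasting. The most abundant of the 7 were Mbtps1, the site-1 protease, at a fed mean of 11.7 RPKM and Pcsk7 at 4.06 RPKM, both below Pcsk1. Of 10 tested genes for trimming and convertase folding, 5 differed between fed nuclei and 0 were called for fasting. Among them Scg5, which encodes the 7B2 chaperone that Pcsk2 needs, had fed means of 112 RPKM for the ARC, 133 for the VMH, 99.3 for the DMH and 167 for the PVN, and Ctsb, a lysosomal protease, had a fed mean of 101 RPKM. Of 5 genes that supply copper and ascorbate to Pam, 2 differed between fed nuclei and 0 were called for fasting, with the copper chaperone Atox1 (42.4 RPKM) and the electron carrier Cyb561 (15.3 RPKM) the most abundant.

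Secretory granule genes carry and release the products of these enzymes. Of 10 such genes, 9 differed between fed nuclei (12.4% of all genes did) and 0 were called for fasting (at most 0.131%), and the most abundant were Scg2 (fed mean 528 RPKM, from 371 in the VMH to 728 in the PVN) and Chgb (259 RPKM). Of 22 tested prohormone genes, 20 differed between fed nuclei. The most abundant, Oxt and Sst, had fed means of 1128 and 833 RPKM over all fed libraries, and Oxt reached 4066 RPKM in the PVN, where Pcsk1 was highest.

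Of the 22 prohormone genes, 2 passed the threshold for fasting, 1 in the ARC and 1 in the PVN. Agrp, the hunger peptide of the ARC, rose there from 133 to 409 RPKM (1.61, SE 0.33, adjusted p = 0.0613), a call lost when any of 6 of the 10 ARC libraries was left out (adjusted p up to 0.150). Pdyn, the dynorphin precursor, fell in the PVN from 60.4 to 40.7 RPKM (-0.58, SE 0.12, adjusted p = 0.0573), a call lost without any of 7 of the 11 PVN libraries (adjusted p up to 0.239). Both calls were also lost when each nucleus was fitted alone (adjusted p = 0.280 and 0.646), and that of Agrp with a pseudocount of 0.1 (adjusted p = 0.218). Npy, which Agrp neurons also make, missed the threshold in the ARC with means of 345 RPKM in fed and 913 RPKM in fasted mice (1.33, SE 0.44, adjusted p = 0.464), and was named after its values were seen.

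Of 10 partners, inputs and targets of Nhlh2, 5 differed between fed nuclei and 1 changed with fasting. Lepr, the leptin receptor, rose in the ARC from 3.18 to 9.09 RPKM (1.22, SE 0.17, adjusted p = 0.000651) and still passed with any single ARC library left out (adjusted p up to 0.00615), but not when the ARC was fitted alone (adjusted p = 0.391). The most abundant of the 10 were Ndn (fed mean 257 RPKM), a member of the MAGE family, and Tcf4 (14.03 RPKM), a helix-loop-helix factor that can pair with others of its class.

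The genes with the most similar levels to each of the 6 were found over all 42 libraries, by Pearson's r of log2(RPKM + 1) among genes with a mean of at least 5 RPKM. For Pcsk1 they were Trp53i11 (r = 0.92), Lrpap1 (0.91) and Ptbp3 (0.90), and for Nhlh2 they were Zfp804a (0.84), Rbms3 (0.84) and Arfgef3 (0.83). Pcsk1 itself stood at rank 34 of 13745 genes for Nhlh2 (r = 0.75). Pcsk2 was most like Vstm2a (0.93), Slit2 (0.90) and Slc24a2 (0.90). Cpe was most like Elavl2 (0.84), Nrn1 (0.83) and Sim1 (0.82), the last a marker of the PVN. For Pam they were Adgrl2 (0.79), Atp1b1 (0.78) and App (0.77), and for Pcsk1n Gpx3 (0.74), Sv2c (0.74) and Prrc2c (0.71). These values describe a likeness across nuclei that share libraries and batches.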

How the data were processed

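Laser-captured ARC, VMH, DMH and PVN of fed and 24-h fasted wild-type mice gave 42 RNA-seq libraries. Per the submitters' processing notes, CASAVA 1.7, TopHat2 2.0.11, Cufflinks 2.2.1, edgeR and limma were used with GRCm38. The authors deposited 1 table of RPKM values for 37907 genes, from which batch means had been removed and in which a gene with no reads holds a value above 0 (median 1.60 RPKM), as read from the values. The batches held unlike mixes of the groups, so removing batch means can itself shift differences between groups and ratios of genes. The main limma fit had no batch term, and the size of such shifts was not tested. Recurring no-read values gave 3 batches of 10, 16 and 16 libraries and the depths (1.33 to 13.2 M reads), with 98.0% to 98.9% of values within 0.05 of a whole read. Depth and batch are therefore estimates.

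Because the values are RPKM, limma 3.58.1 (R 4.3.3) was fitted to log2(RPKM + 1), a scale that understates changes of low genes, in place of a count model. The 8 group means were fitted over 33579 genes with at least 1 RPKM in at least 4 libraries, with Benjamini-Hochberg adjustment over all of them and a threshold of 0.1. Exact and permutation tests were enumerated or resampled directly in Python 3.11.15 with NumPy 2.4.6, with ranks from SciPy 1.17.1. Positions are from the GRCm38 annotation, whose identifiers matched 35965 genes. Genes named from the lists were the 2 with the highest fed mean and those changed by fasting, and for likeness the top 3. The members and lists were chosen with earlier results of these data known. Alternatives included other pseudocounts, filters, scalings, a replicate block, estimated depth as a covariate and leaving out each library. Scripts were tested on simulated data. Mice with a deletion that the study also used were not analysed here.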

Additional observations from a re-analysis of the deposited data

Results flagged for a closer look

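Pcsk1 in PVN-Fed library 1 stood apart from the other fed PVN libraries, at 55.8 RPKM against 31.9 to 40.5 RPKM in the others. Of 48 gene and group combinations 1 was singled out in this way, where chance gives about 2.4. Without that library the fasted minus fed difference of Pcsk1 in the PVN was 0.09 on the log2 scale, and with all libraries -0.01.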

How the results depend on the processing

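The counts of the 6 genes called between fed nuclei (6) and between fasted nuclei (6) were the same in each of 10 alternative settings. With 1 library left out they were the same in 19 of 22 recounts for fed and in 20 of 20 for fasted nuclei. The other 3 gave 5 genes between fed nuclei, without ARC-Fed library 2 or DMH-Fed library 4 or 5. The counts for fasting (0 in each nucleus) and for the interaction (0) stayed at 0 in every recount. So few of all genes were called there that these counts of 0 are not a result about the 6 genes. Of the 12 tests of ratios between fed nuclei, 9 passed, and 7 to 9 with 1 library left out. Fasting differences that changed sign were near 0. Quantile normalization gave 0.025 for Pcsk1 and -0.0041 for Cpe in the PVN. Array weights gave 0.073 for Pcsk1 in the PVN and 0.018 for Cpe in the ARC. Between nuclei, quantile normalization moved Cpe in fasted ARC minus VMH from 0.03 to -0.11, which was not called in either setting. The cause was not tested. Nhlh2 is low, so its called differences moved with the pseudocount: fed VMH minus PVN was -2.36 with 0.1 and -0.88 with 5, and a pseudocount of 5 called fasted ARC minus PVN (-0.51, adjusted p = 0.0417).

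With the replicate number as a block, the counts were again 0 for fasting, 6 and 6 between nuclei and 0 for the interaction, and Pcsk1 (0.045) and Cpe (-0.014) changed sign for fasting in the PVN. Between same-numbered libraries of different nuclei in one state, the median r of deviations from group means was -0.0312, with 0 of 58 pairs over 0.1. Between same-numbered fed and fasted libraries of a nucleus it was -0.0537, with 0 of 20. Only 38 of the 58 pairs shared a batch, and the labels do not say that a number marks a brain. Neither the block nor these values of r can therefore show whether libraries of one brain vary together.

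Of 125 results, 18 changed sign when 1 library was left out, and none of these was called. For fasting, they ranged from -0.073 to 0.093 for Pcsk1, -0.024 to 0.089 for Pcsk2, -0.041 to 0.059 for Cpe and -0.016 to 0.31 for Nhlh2 in the PVN, from -0.22 to 0.022 for Pcsk1, -0.0086 to 0.067 for Pam and -0.28 to 0.080 for Nhlh2 in the VMH, and from -0.066 to 0.053 for Cpe in the ARC. Between nuclei they ranged from -0.018 to 0.10 for Cpe (fasted ARC and VMH), -0.23 to 0.0088 for Pcsk1 and -0.31 to 0.063 for Nhlh2 (fed VMH and DMH), and -0.096 to 0.017 for Pcsk2 (fed VMH and PVN). The fasting difference of log2 Pcsk1/Pcsk2 ranged from -0.27 to 0.053 in the ARC, -0.093 to 0.21 in the DMH and -0.16 to 0.091 in the PVN. That of log2 Pcsk1/Pcsk1n ranged from -0.25 to 0.043 in the ARC and -0.16 to 0.19 in the DMH, and fed ARC minus PVN of Pcsk1/Pcsk2 from -0.099 to 0.18.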
